A study of Rattus norvegicus with 4 samples.

Results

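The proteasome genes were examined in male F344 rats, an inbred laboratory strain, from the ventral lobe of the prostate. The rats were 6 weeks old when treated and were killed 2 days later. One group had received PhIP at 300 mg/kg and the other had not; no vehicle, route or further agent is named for either. PhIP is a heterocyclic aromatic amine that forms in cooked meat, and its metabolites bind DNA. Each group held 4 rats and 2 arrays (control 1, control 2, PhIP 1, PhIP 2), and every array carried mixed RNA of 2 rats, so the spread between arrays is one between pools and not between animals. Genes were taken where a probe set of the array carried exactly 1 symbol that began with Psma to Psmg and a number. This gave 60 probe sets of 46 genes, among 31042 probe sets and 14217 singly named genes in all, and each gene was represented by its probe set with the highest mean signal. All 46 passed the filter on low signals. Of these, 44 encode proteasome subunits, activators, chaperones or an inhibitor. The other two match the name only: Psmc3ip, a factor of homologous recombination, and Psme3ip1, a binding partner of an activator subunit. Psmb6, Psme3 and Psma3l lie on probe sets with several symbols, and Psma8 and Psmb11 had no singly named probe set, so these genes were not analysed here.

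The proteasome is the protease that destroys proteins tagged with ubiquitin. Its barrel-shaped core has outer rings of alpha subunits, which gate the channel, and inner rings of beta subunits, of which Psmb5, Psmb6 and Psmb7 carry the proteolytic sites. A regulatory cap binds ubiquitin chains, removes them and unfolds the substrate with a ring of ATPases. Interferon induces Psmb8, Psmb9 and Psmb10, which take the places of Psmb5, Psmb6 and Psmb7 in newly built cores and change the peptides made for MHC class I molecules. Luminal cells of the ventral prostate secrete protein in bulk, and misfolded secretory proteins are passed back to the cytosol for proteasomal destruction.

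Of the 44 proteasome genes, 0 passed an adjusted p of 0.05 (limma with Benjamini-Hochberg adjustment over 18625 probe sets, lowest adjusted p = 0.252), where 0.0268% of all tested probe sets did (0.0215% higher and 0.00537% lower). By value, most stood slightly higher in PhIP: 31 were higher and 13 lower. Over all tested probe sets, 8624 were higher and 10001 lower. The median log2 fold change of the 44 was 0.081 against −0.025 over all tested probe sets. The changes were small. The largest difference in either direction was −0.34, and 32 of the 44 lay within 0.2 of zero on the log2 scale, where the median 95% interval reached 0.26 to each side. The groups did not overlap in 23 genes, 52.3% of them, against 45.8% of all tested probe sets. Of these, 17 genes had both PhIP arrays above both control arrays (38.6%, against 19.8% of all) and 6 had both below (26% of all). Brightness bears on that background. Among the 1973 tested probe sets with a mean signal of at least 500, 1210 were higher and 763 lower. The share with both PhIP arrays above was 35.7% and the median log2 fold change 0.046. Among the 29 proteasome genes as bright, 22 were higher and 7 lower, and these values were 48.3% and 0.083. At an unadjusted p under 0.05, 3 genes were higher and 1 lower, 9.09% of the 44 where 5.36% and 7.61% of all tested probe sets were, 13% together. That count depended on the scaling. After median centring 15 were higher and 0 lower, and after scaling to the hybridization controls 22 and 0. These scalings moved the median of all tested probe sets to 0.11 and 0.20. The share of all tested probe sets at that p was not counted under them, so these counts are not read as a trait of proteasome genes.

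**Figure D1:**
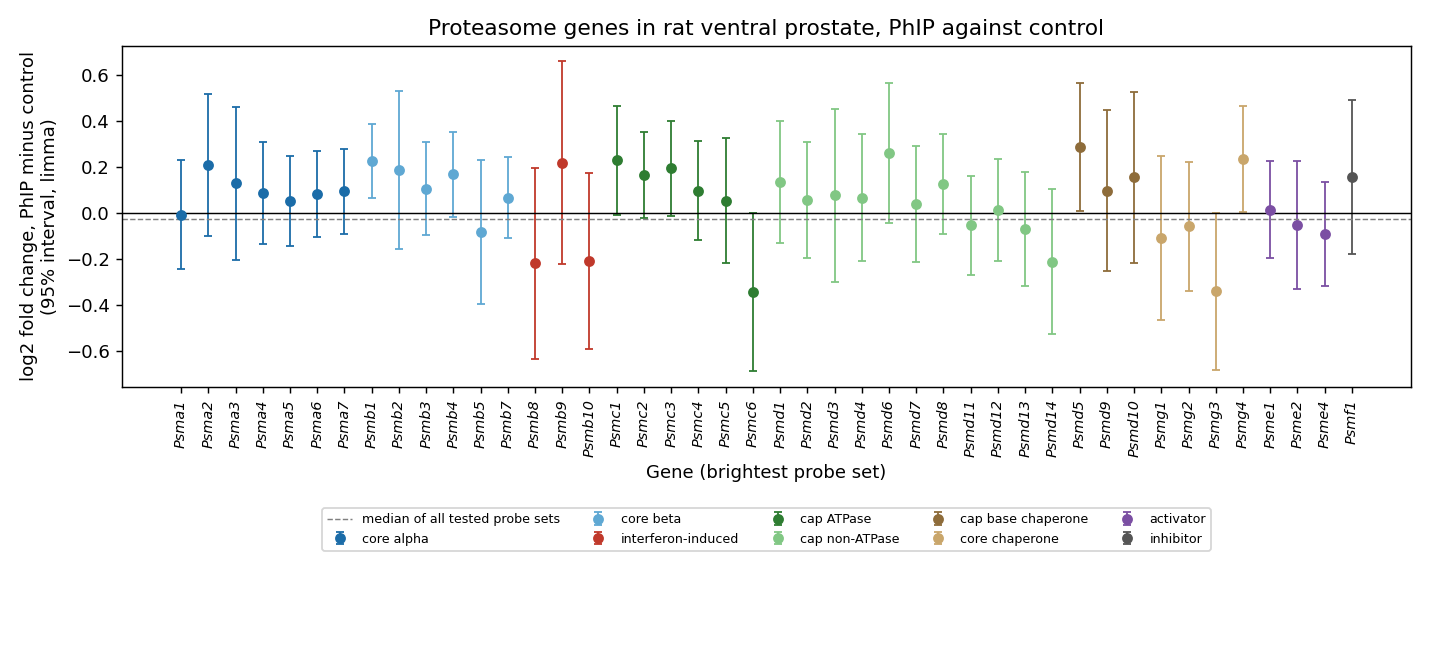
Log2 fold change of PhIP against control for the brightest probe set of each of the 44 proteasome genes, in order of role, with the 95% interval of limma as bars and the median of all tested probe sets (−0.025) as a dashed line. Most core and cap genes lie just above 0, Psmb8 and Psmb10 lie near −0.2 and Psmb9 near 0.2, and the intervals of Psmb1, Psmd5, Psmg4 and Psmc6 alone do not reach 0.

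The upstream sequences of these genes are shown first, since the roles described below differ in the transcription factors known to read them. RefSeq promoters on assembly GRCr8, each of 300 bases from 250 before to 50 after a gene's start, were matched by gene identifier for 40 of the 44 genes. The interferon-stimulated response element core (GAAA, any 2 bases, GAAA, on either strand) was present in 7 of the 40 (17.5%) and in 3.92% of all 33469 promoters of that length. It lay in 2 of the 3 interferon-induced subunits, Psmb8 and Psmb10, and in the interferon-induced activator gene Psme2. The other 4 were the core genes Psma4 and Psmb3, the cap gene Psmd7 and the chaperone gene Psmg4, and the window of Psme1 held none. The gamma-activated site, TTCNNNGAA, was found in 10% of the 40 and in 8.87% of all promoters. In the stretches below, capitals mark these motifs, and Psmb9 is shown for comparison. Its window held the letters of neither.
Psmb8, gamma-activated site, chr20:4657232-4657281, minus strand: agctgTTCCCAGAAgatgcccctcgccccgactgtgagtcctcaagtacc
Psmb8, interferon element, chr20:4657016-4657045, minus strand: gtgctgtggcTTTCGCTTTCacttccttgt
Psmb9, neither motif, chr20:4668870-4668949, plus strand: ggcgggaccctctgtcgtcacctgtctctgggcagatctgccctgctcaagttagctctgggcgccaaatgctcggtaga
Psmb10, interferon elements, chr19:50743293-50743372, minus strand: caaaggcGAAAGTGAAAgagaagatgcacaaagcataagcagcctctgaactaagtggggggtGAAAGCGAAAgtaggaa
Psme2, interferon element, chr15:33052785-33052814, minus strand: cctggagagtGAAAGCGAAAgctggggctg

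The antioxidant response element core, TGACNNNGC on both strands, is the motif through which Nfe2l1 and Nfe2l2 act with small MAF proteins, and Nfe2l1 drives the resynthesis of proteasome subunits when the protease is impaired. It was present in 7 of the 40 promoters (17.5%) and in 12.1% of all. The CCAAT box, bound by NF-Y, was present in 50% of the 40 and 37.5% of all, with 9 of 12 core promoters (75%) among them. A match is only a run of letters, and matches of different motifs were counted separately also where they overlap, as in Psmb2. Windows with an antioxidant core, in capitals, are given for 2 core genes, 1 cap gene and 1 chaperone gene.
Psmb2, chr5:144254979-144255008, plus strand: acccgcgccaaTGACCGGGCggtcgcatat
Psmb5, chr15:32047421-32047450, minus strand: gcgtgaagctgTGACGTCGCggcgttgccc
Psmd1, chr9:94157795-94157824, plus strand: gaccagatctaTGACCTCGCgagaattata
Psmd9, chr12:39018323-39018352, minus strand: ggagtttccggTGACCTCGCcccacctcca

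The interferon-induced subunits did not move as one. Their log2 fold changes were −0.22 for Psmb8, −0.21 for Psmb10 and 0.22 for Psmb9, a median of −0.21. All 3 were dim: their MAS5 signals, deposited on a linear scale with the same trimmed mean on every array, lay between 46.2 and 101.9. Psmb8, the counterpart of Psmb5, had signals of 62.1 and 57.4 in the control pools and 53.9 and 46.2 in the PhIP pools. Both PhIP arrays were below both control arrays. The log2 fold change was −0.22 ± 0.18 (SE, 95% interval −0.63 to 0.20, limma adjusted p = 0.631). Psmb10, the counterpart of Psmb7, had 90.4 and 77.3 in the control pools and 70.5 and 71.7 in the PhIP pools. Again the groups did not overlap, with control 1 the highest array (−0.21 ± 0.16, −0.59 to 0.17, adjusted p = 0.618). Psmb9, the counterpart of Psmb6, had 85.3 and 67.5 in the control pools and 101.9 and 79.6 in the PhIP pools, so that PhIP 2 fell between the control arrays (0.22 ± 0.19, −0.22 to 0.66, adjusted p = 0.645). None of the 3 passed the test, and their intervals include 0 and changes of over 0.5 in one direction. The sign of Psmb8 and Psmb10 turned when arrays were scaled to the hybridization controls (0.0096 and 0.021), whereas Psmb9 stayed higher in every setting run (0.06 to 0.45).

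The constitutive catalytic subunits were far brighter, and their values can be followed with narrower intervals. Psmb5, which carries the chymotrypsin-like site, had 1255.5 and 1702.8 in the control pools and 1402.7 and 1358.2 in the PhIP pools. Both PhIP arrays lay between the control arrays, and control 2 was the highest (−0.083 ± 0.13, limma adjusted p = 0.813). Without control 1 its value was −0.30, and without control 2 it was 0.14. Psmb7, which carries the trypsin-like site, had 1423 and 1407.3 in the control pools and 1460.9 and 1505.6 in the PhIP pools, a slight difference without overlap (0.067 ± 0.076, −0.11 to 0.24, adjusted p = 0.727). Within each array, the log2 value of an induced subunit minus that of its counterpart does not depend on the scaling factor of the array, apart from the added constant. For Psmb10 minus Psmb7, set to a control mean of zero, this difference was 0.093 and −0.093 in control and −0.26 and −0.29 in PhIP. Psmb10 was therefore lower relative to Psmb7 in both PhIP pools, by −0.27. Filters, variance models, the replicate block and a common shift of an array cannot move this difference. Under the settings that can, it ran from −0.37 to −0.18. A shift between arrays that varies with brightness would still enter it, since Psmb7 was far brighter. The difference was −0.20 both after quantile normalization and after cyclic loess. For Psmb8 minus Psmb5 the values were 0.27 and −0.27 in control and −0.066 and −0.21 in PhIP, which overlap. With 2 arrays against 2, an exact permutation test (two-sided) cannot go below p = 0.333 for either of these differences.

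The genes that act with the immunoproteasome in MHC class I presentation also lay on both sides of zero. Of 21 listed genes, 11 were tested, 7 higher and 4 lower in PhIP with a median log2 fold change of 0.040, and 0 passed an adjusted p of 0.05 (limma). At an unadjusted p under 0.05, 1 was higher and 1 lower (18.2% together, against 13% of all tested probe sets). Tap1, which encodes a subunit of the peptide transporter, lies beside Psmb9 on chromosome 20 and is read in the opposite direction. It had signals of 55.2 and 46.7 in the control pools and 65.9 and 65.8 in the PhIP pools. Both PhIP arrays were higher (0.32 ± 0.18, adjusted p = 0.487), the sign seen for its neighbour. Tap2, the partner of Tap1 in the transporter, was too dim to be tested, at 4.0 to 17.6 over the arrays. Tapbp, which loads the peptide, stood at 0.020 ± 0.13 and B2m, the light chain of class I molecules, at 0.19 ± 0.12 (adjusted p = 0.955 and 0.548). The class I heavy chain genes lay on the other side. RT1-CE16 had 189.7 and 219.4 in the control pools and 129.0 and 130.4 in the PhIP pools (−0.62 ± 0.14, adjusted p = 0.149). RT1-CE5 (−0.33 ± 0.18, adjusted p = 0.488) and RT1-CE10 (−0.30 ± 0.17, adjusted p = 0.495) were lower as well. RT1-S3 was lower with overlap between the groups (−0.42 ± 0.23, adjusted p = 0.473). These heavy chain genes are near-identical copies, and their probe sets may share transcripts. The chaperone Pdia3, which helps to fold class I heavy chains, had 4298.6 and 3689.2 against 4762.1 and 4698.8 (0.25 ± 0.08, adjusted p = 0.280).

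**Figure D2:**
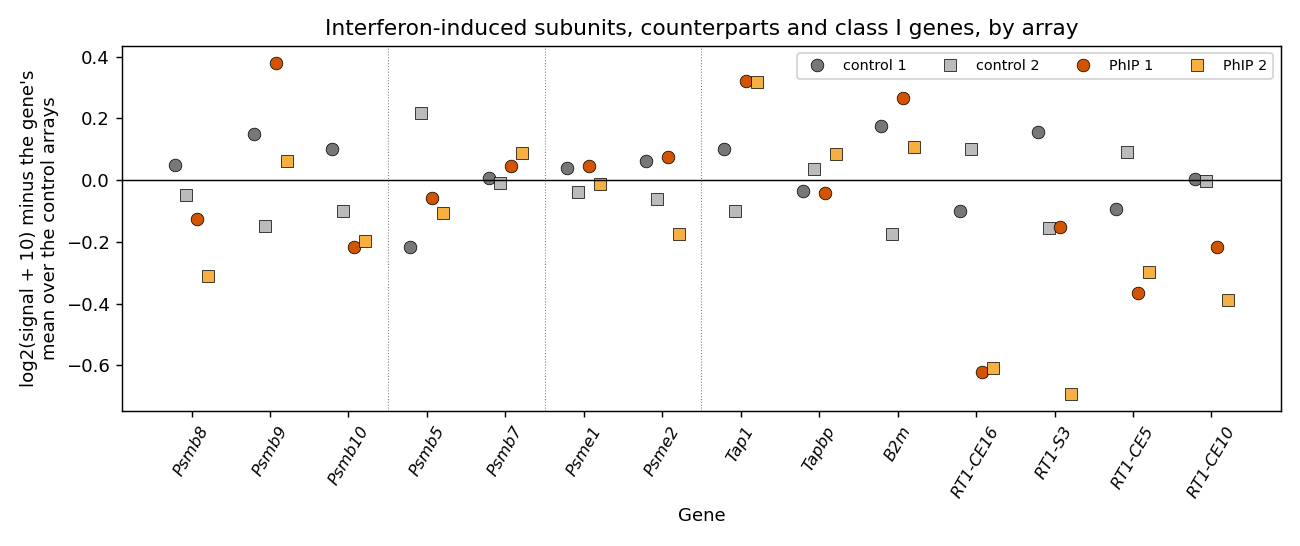
Log2(signal + 10) of each array minus the gene's mean over the control arrays, for the interferon-induced subunits, the counterparts Psmb5 and Psmb7, the activator genes Psme1 and Psme2, and genes of class I presentation. Psmb8, Psmb10, RT1-CE16, RT1-CE5 and RT1-CE10 have both PhIP arrays below both control arrays, while Tap1 has both above.

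Leukocytes express the induced subunits constitutively, so their markers are given beside these values. Of 26 listed markers, 24 were on the array, 8 were too dim to be tested, and among the 16 tested 6 were higher and 10 lower in PhIP (median log2 fold change −0.16). At an unadjusted limma p under 0.05, 2 were higher, Cd14 (0.50 ± 0.09, adjusted p = 0.0977) and Lyz2 (0.29 ± 0.06, adjusted p = 0.116), and 3 lower, Cd48, Cd74 and C1qb, where 5.36% of all tested probe sets were higher and 7.61% lower. The summed signal of the 24 was 6292.1 and 6275.7 in the control pools and 7447.6 and 7353.9 in the PhIP pools. Lyz2 and Cd14, with mean signals of 4853.7 and 1016.6, made up most of that sum. Without these 2, the markers named above as higher, it was 1030.3 and 1134.0 in the control pools and 904.8 and 818.8 in the PhIP pools. Leaving out higher genes favours a lower sum in PhIP, so no direction is read from it. The T cell genes Cd2, Cd3d and Cd3e did not exceed a signal of 13.2 on any array, and Cd3g lay between 24.6 and 37.1. The part of leukocytes in the values of Psmb8, Psmb9 and Psmb10 was not tested, and in these mixed tissues fewer cells of a type and less RNA per cell cannot be told apart. Interferon signalling genes stood on the list of transcriptional regulators. Irf9, the DNA-binding part of the complex that reads the interferon-stimulated response element, had 64.0 and 56.9 in the control pools and 34.2 and 36.0 in the PhIP pools (−0.64 ± 0.18, adjusted p = 0.229), whereas Irf1, which acts on the promoters of the induced subunits, overlapped between the groups (−0.21 ± 0.27), as did Stat2, a partner of Irf9 in that complex (0.12 ± 0.16), and Irf8 (0.037 ± 0.30).

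Core subunits lay mostly on the higher side. Of 13 measured alpha and constitutive beta genes, 11 were higher in PhIP, with a median log2 fold change of 0.10, or 6.86%. Both PhIP arrays were above both control arrays in 7 of them (53.8%, against 19.8% of all tested probe sets and 35.7% of those with a mean signal of at least 500) and below in 0 (against 26% of all). The median over the genes, relative to each gene's control mean, was 0.0079 and −0.0079 for the control pools, against 0.11 and 0.089 for the PhIP pools. The gap between the core median and that of all tested probe sets was 0.12, and it shrank to 0.055 after quantile normalization and 0.050 after cyclic loess, which align arrays separately at each brightness. Psmb1, a non-catalytic beta subunit, had the lowest p of all 44 genes. Its signals were 2177.2 and 2103.3 in the control pools and 2463.0 and 2546.1 in the PhIP pools. The PhIP arrays lay above the control arrays by more than the arrays of either group differed from each other (0.23 ± 0.07, 95% interval 0.07 to 0.39, limma adjusted p = 0.252). Psmb4 had 1253.2 and 1327.9 in the control pools and 1466.1 and 1438.2 in the PhIP pools (0.17 ± 0.08, adjusted p = 0.416), and Psmb3 stood at 0.11 ± 0.09.

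Among the alpha subunits, which form the gate of the core, 6 of 7 were higher. In 3 (42.9%) both PhIP arrays lay above both control arrays, against 19.8% of all tested probe sets and 35.7% of those with a mean signal of at least 500. Psma7 stood at 0.096 ± 0.080 and Psma4 at 0.089 ± 0.095, both with the groups apart, and Psma6 at 0.083 ± 0.080 and Psma3 at 0.13 ± 0.14 with overlap. Psma2 had the largest value of the ring, 0.21 ± 0.13 (adjusted p = 0.533), but it rested on 1 control pool. Its signals were 1566.1 and 1160.7 in the control pools and 1588.1 and 1537.9 in the PhIP pools, so that control 1 lay among the PhIP arrays. The beta gene Psmb2 had the same shape, with 1216.9 and 870.7 in the control pools and 1139.1 and 1212.7 in the PhIP pools (0.19 ± 0.15). Without control 2 their values were −0.0030 and −0.050, and without control 1 they were 0.43 and 0.43. Psma1 stood at −0.0060 ± 0.10 and Psma5 at 0.054 ± 0.085.

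The ring of cap ATPases, which unfolds substrates, was measured by 6 genes, of which 5 were higher in PhIP. In these 6, 4 had both PhIP arrays above both control arrays (66.7%) and 1 both below. Of all tested probe sets, 19.8% were above and 26% below, and 35.7% were above among those with a mean signal of at least 500. Psmc1 had 612.6 and 703.1 in the control pools and 781.8 and 761.1 in the PhIP pools (0.23 ± 0.10, adjusted p = 0.401). Psmc3 had 824.9 and 898.4 in the control pools and 982.1 and 992.2 in the PhIP pools (0.20 ± 0.09, adjusted p = 0.409). Psmc2 had 2141.3 and 2423.5 in the control pools and 2557.2 and 2563.5 in the PhIP pools (0.17 ± 0.08, adjusted p = 0.421). In all 3, control 2 lay closer to the PhIP arrays than control 1 did. The 95% interval of each reached just below zero, to −0.0081, −0.012 and −0.019. Psmc4 (0.10 ± 0.09) and Psmc5 (0.055 ± 0.12) were closer to zero. Psmc6 was the one ATPase gene lower in PhIP, and its probe sets disagreed. The brightest had 655.0 and 882.7 in the control pools and 562.3 and 634.4 in the PhIP pools (−0.34 ± 0.15, unadjusted p = 0.0497, limma adjusted p = 0.384), and −0.56 without control 1. The next stood at −0.011 ± 0.10 and the dimmest at 0.36 ± 0.18, with both PhIP arrays higher, so the gene has no settled direction.

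Of the 11 non-ATPase subunits of the cap, which bind and process ubiquitin chains, 8 were higher and 3 lower, with a median of 0.059. Both PhIP arrays lay above both control arrays in 3 (27.3%) and below in 1. The share above was 19.8% over all tested probe sets and 35.7% over those with a mean signal of at least 500. Psmd6, a subunit of the lid, had 1097.9 and 827.5 in the control pools and 1154.1 and 1134.9 in the PhIP pools (0.26 ± 0.13, limma adjusted p = 0.446). Both PhIP arrays were higher, but control 1 lay close to them. Psmd14, the enzyme that cuts ubiquitin chains from the substrate, had 632.2 and 619.5 in the control pools and 471.1 and 617.2 in the PhIP pools in its brightest probe set (−0.21 ± 0.14, adjusted p = 0.540). That value came from PhIP 1, and the other probe sets stood at 0.32 ± 0.18 and −0.091 ± 0.33. Psmd8 (0.13 ± 0.09) and Psmd1, the large scaffold of the base (0.14 ± 0.11), had both PhIP arrays above the control arrays by a small margin. Psmd7 stood at 0.040 ± 0.11 in its brightest probe set with overlap. Another probe set of the gene had 538.2 and 515.1 in the control pools and 690.5 and 647.3 in the PhIP pools, with no overlap (0.34 ± 0.10, adjusted p = 0.229), and was singled out after its values were seen. The ubiquitin receptor gene Psmd4 (0.069 ± 0.12) and the scaffold gene Psmd2 (0.059 ± 0.11) overlapped between the groups, as did Psmd3 (0.079 ± 0.16), Psmd12 (0.014 ± 0.095), Psmd11 (−0.053 ± 0.092) and Psmd13 (−0.069 ± 0.11). Over all 17 cap genes the median was 0.069, and it was −0.036 without control 1 and 0.17 without control 2, so that which control pool was used decided whether the cap stood above zero.

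**Figure D3:**
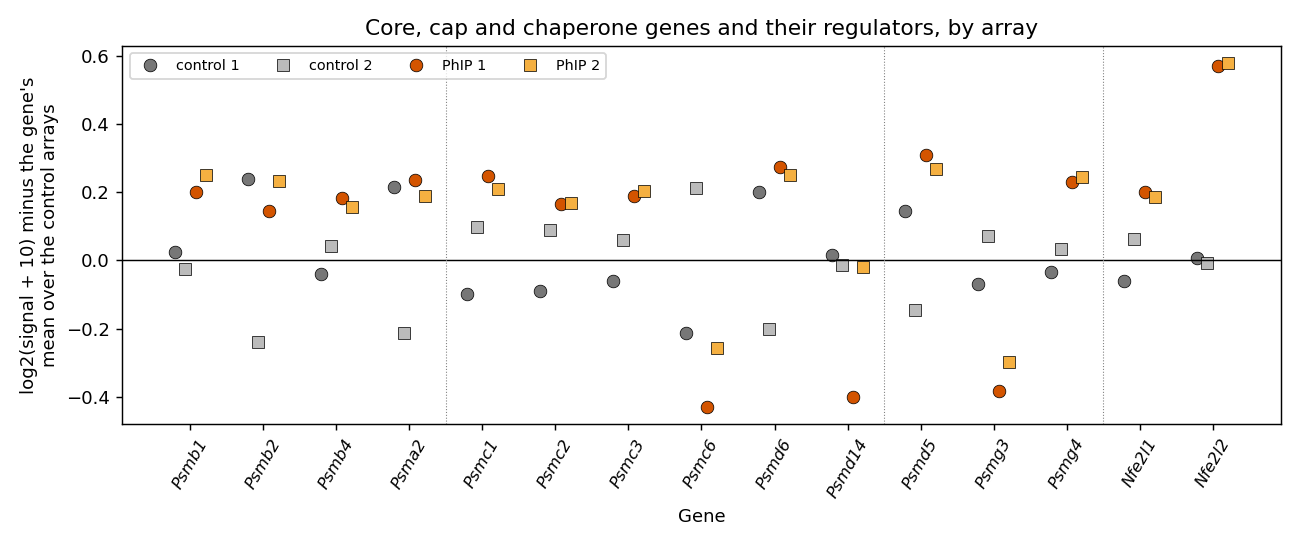
Log2(signal + 10) of each array minus the gene's mean over the control arrays, for core genes, cap genes, assembly chaperones and the regulators Nfe2l1 and Nfe2l2. In Psmb2, Psma2, Psmd6 and Psmd5 control 1 lies well above control 2, in Psmc6 well below it, and both PhIP arrays of Nfe2l2 lie near 0.6.

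Chaperones that assemble the particle gave 2 of the 4 genes at an unadjusted limma p under 0.05, both higher. Those 4 were 9.09% of the 44 proteasome genes, against 13% of all tested probe sets and 20% of those with a mean signal of at least 500. The chaperones had no common direction. By value, all 3 of the cap base were higher, while of the 4 of the core 1 was higher and 3 lower. Psmd5, a chaperone of the cap base, had 564.1 and 459.3 in the control pools and 633.4 and 614.8 in the PhIP pools (0.29 ± 0.12, 95% interval 0.0090 to 0.57, limma adjusted p = 0.373). Psmg4, which with Psmg3 guides the alpha ring, had 443.4 and 465.5 in the control pools and 534.8 and 539.7 in the PhIP pools (0.24 ± 0.10, 0.0074 to 0.47, adjusted p = 0.373). Both genes had the PhIP arrays above the control arrays, and Psmg4 held the 2 arrays of each group close together. Its partner Psmg3 had the opposite sign, with 120.3 and 133.7 in the control pools and 95 and 101.3 in the PhIP pools (−0.34 ± 0.15, −0.68 to 0.0027, adjusted p = 0.388). The other dimer of this kind, Psmg1 (−0.11 ± 0.15) and Psmg2 (−0.056 ± 0.12), overlapped between the groups. Psmd10 stood at 0.16 ± 0.16 through PhIP 1 alone (268.7, against 198.0 to 219.5 on the other arrays). Psmd9 was higher at 0.10 ± 0.15 in its brightest probe set and stood at −0.27 ± 0.26 in a dimmer one.

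Of the activator and inhibitor genes, 0 passed an adjusted p of 0.05 (limma) and, in the brightest probe sets, 0 an unadjusted p of 0.05. Psme1 and Psme2, the interferon-induced subunits of the ring that opens the core in place of the cap, lie close together on chromosome 15. Psme1 had 794.0 and 751.6 in the control pools and 797.3 and 764.8 in the PhIP pools (0.015 ± 0.091, −0.19 to 0.23), and Psme2 had 536.9 and 491.3 in the control pools and 540.9 and 453.7 in the PhIP pools (−0.051 ± 0.12, −0.33 to 0.23). Both overlapped between the groups, and the intervals do not reach the size of 0.5 in either direction. A second and dim Psme1 probe set differed from the first, with 18.4 and 33.1 in the control pools and 3.6 and 12.6 in the PhIP pools (−0.997 ± 0.35, adjusted p = 0.301). Psme4, a large nuclear activator, stood at −0.090 ± 0.098 in its brightest probe set and at 0.34 ± 0.30 and 0.20 ± 0.13 in others. The inhibitor gene Psmf1 stood at 0.16 ± 0.14, with PhIP 1 above the other arrays. Of the 2 genes that match by name only, Psme3ip1 had 199.2 and 203.5 in the control pools and 236.1 and 251.7 in the PhIP pools (0.26 ± 0.12, adjusted p = 0.411), and Psmc3ip stood at 0.040 ± 0.20.

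Of the 17 tested regulators outside the Psm names, Irf9 and Nfe2l2 had the largest differences, in opposite directions. Nfe2l2, which encodes the transcription factor of the antioxidant response, had signals of 422.7 and 418.0 in the control pools and 629.6 and 632.8 in the PhIP pools. The groups were far apart in relation to the spread within each (0.58 ± 0.10, unadjusted p = 0.000392), yet it did not pass the adjustment (limma adjusted p = 0.0832). Nfe2l1, which induces proteasome genes, had 470.9 and 513.5 in the control pools and 567.0 and 561.1 in the PhIP pools (0.19 ± 0.10, adjusted p = 0.464). Ngly1, the enzyme that matures it, stood at 0.17 ± 0.09 and Stat3 at −0.22 ± 0.10. In all, 12 of the 17 tested regulators were higher and 5 lower (median 0.12), with 1 higher and 1 lower at an unadjusted p under 0.05. Of 16 tested proteasome partners, 11 were higher and 5 lower (median 0.045). The deubiquitinase gene Uchl5 (0.24 ± 0.10, adjusted p = 0.383) and the stress-induced Zfand2a (0.38 ± 0.16, adjusted p = 0.369) were higher without overlap. The cap proteins with other names, Adrm1, a ubiquitin receptor (0.14 ± 0.15), and Sem1 (0.0028 ± 0.08), overlapped. The core maturation factor Pomp stood at 0.047 ± 0.071, and the thioredoxin-like Txnl1 (−0.14 ± 0.07) and the cap-binding Ecpas (−0.13 ± 0.07) were lower without overlap. Of 11 tested ubiquitin-conjugating and activating enzymes, 5 were higher and 6 lower (median −0.030), with Ube2n at 0.26 ± 0.10 and Ube2d2 at −0.27 ± 0.12, Cdc34 at −0.24 ± 0.13 and the interferon-induced Ube2l6 at −0.34 ± 0.19. In these 3 lists 0 genes passed an adjusted p of 0.05, and 2, 2 and 1 had an unadjusted limma p under 0.05 among regulators, partners and enzymes. These were 11.8%, 12.5% and 9.09% of the lists, against 13% of all tested probe sets.

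The arrays differed in spread and in the evenness of signal along transcripts, and markers of several cell types differed between the groups by value. None of these markers passed an adjusted limma p of 0.05 (lowest 0.0517, in smooth muscle). Control arrays differed more from each other than PhIP arrays did in 35 of the 44 genes (79.5%, against 61.9% of all tested probe sets), with a median difference of 0.15 between the control and 0.062 between the PhIP arrays. The signal at the 3′ end of a transcript relative to its 5′ end, which rises as RNA degrades, was highest on control 2, both for actin (5.71, against 3.49 to 4.18) and for Gapdh (2.06, against 1.34 to 1.45). When an array is left out, the fit takes its spread from the other group alone, so only fold changes are given for such fits. Smooth muscle markers were lower in PhIP in 12 of 13 cases (median −0.62, summed signal 11107.7 and 11255.0 in the control pools and 8237.7 and 8091.5 in the PhIP pools). Endothelial markers were lower in 9 of 10 (median −0.30). Skeletal muscle markers were lower by mean in 6 of 6 tested, but control 2 was far above control 1, with a summed signal of 922.3 and 1698.3 in the control pools and 514.6 and 432.7 in the PhIP pools. Of these, Myl1 and Myh4 overlapped between the groups, at 5.2 and 0.5 on control 1 and 305.6 and 164.6 on control 2. Luminal epithelial markers were higher in 11 of 13 (median 0.18, summed signal 23615.7 and 22314.0 against 25682.6 and 25461.2). Krt8 (0.067) and Epcam (0.17) were among the higher, while Cldn4 (−0.30, without overlap) and Pbsn (−0.059, with overlap) were lower. The part of these shifts in the slightly higher core and cap signals was not tested.

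**Figure D4:**
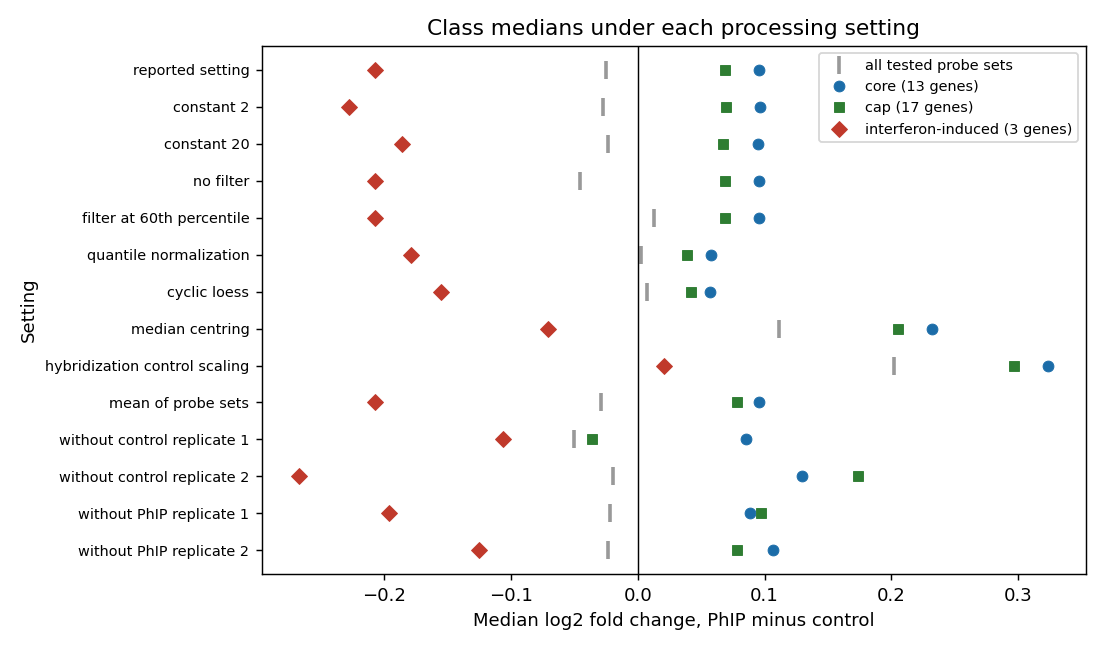
Median log2 fold change of the core, cap and interferon-induced subunits and of all tested probe sets (grey bars) under the reported setting, 9 other settings and the omission of each array. The interferon-induced median stays left of the core median in every setting shown, and the cap median falls below 0 only without control 1 (−0.036).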

How the data were processed

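The authors deposited linear MAS5 signal intensities for each probe set; MAS5 is named in the submitters' processing notes, and its version, scaling target and detection calls were not given. Each array had the same mean after trimming 2% at each end. Symbols came from the platform annotation. Signals were taken as log2(signal + 10), after removing 57 control probe sets, and probe sets above the 40th percentile of mean log2 value (18625, 24.3 or more on the linear scale with the constant) were fitted with limma 3.58.1 (R 4.3.3, lmFit, eBayes with trend, two-sided, Benjamini-Hochberg) on 2 residual degrees of freedom. Fold changes are on that scale and understate those of dim genes. Whether pools came from separate experiments is not stated, so p-values measure the spread between these arrays, whose number limits the precision. The steps were tested on simulated data. Genes and lists were chosen with earlier results of these data known. Named were the catalytic and interferon-induced subunits, activators, the inhibitor and up to 4 genes per role or list by moderated statistic; others are given for completeness. Alternatives were constants of 2 and 20, other filters, 4 scalings, 2 variance models, a replicate block, omission of each array, and averaging the probe sets of a gene. Plots used Python 3.11.15 and matplotlib 3.10.9.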

Additional observations from a re-analysis of the deposited data

How the results depend on the processing

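With 2 pools a group, the median 95% interval of a proteasome gene reached 0.26 to each side on the log2 scale. The number of proteasome genes past an adjusted limma p of 0.05 was 0 under every alternative that kept all arrays and ranged from 0 to 7 when 1 array was left out. Genes higher at an unadjusted p under 0.05 (3 as reported) numbered 1 with quantile normalization and 1 with cyclic loess, 15 after median centring, 22 after scaling to the hybridization controls, 0 with eBayes without trend, and 0 to 12 when 1 array was left out. Genes lower at that p (1 as reported) numbered 0 with a constant of 2, the 60th percentile filter, median centring, hybridization control scaling or eBayes without trend, 2 with the mean of probe sets, and 0 to 3 when 1 array was left out. The core median (0.096) was 0.058 after quantile normalization, 0.057 after cyclic loess, 0.23 after median centring, 0.32 after hybridization control scaling and 0.085 to 0.13 when 1 array was left out. The cap median (0.069) was 0.039, 0.042, 0.21, 0.30 and −0.036 to 0.17 in the same order, and the interferon-induced median (−0.21) was −0.18, −0.16, −0.071, 0.021 and −0.27 to −0.11. The cause of these shifts was not tested beyond the common shift of all probe sets that the scalings bring.

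The sign turned in these genes, some of them near zero and others, such as Psmc6 (−0.34 as reported), among the larger values. Psme1 stood at −0.0047 after quantile normalization, −0.020 after cyclic loess and −0.49 with the mean of probe sets. Median centring gave 0.054 for Psmb5, 0.085 for Psme2, 0.046 for Psme4, 0.029 for Psmg1 and 0.080 for Psmg2. Hybridization control scaling gave 0.0096 for Psmb8, 0.021 for Psmb10, 0.15 for Psmb5, 0.18 for Psme2, 0.14 for Psme4, 0.017 for Psmd14, 0.12 for Psmg1 and 0.17 for Psmg2. The mean of probe sets gave 0.15 for Psme4, 0.00085 for Psmc6, 0.0074 for Psmd14 and −0.086 for Psmd9. When 1 array was left out, values ran from −0.0030 to 0.43 for Psma2, −0.050 to 0.43 for Psmb2, −0.30 to 0.14 for Psmb5, −0.024 to 0.054 for Psme1, −0.18 to 0.073 for Psme2, −0.29 to 0.074 for Psmg1, −0.12 to 0.0099 for Psmg2, −0.028 to 0.34 for Psmf1, −0.11 to 0.19 for Psmc3ip and −0.039 to 0.35 for Psmd10. Of the 34 genes followed, 18 kept their sign under all 16 alternatives. The filters, the variance models and the replicate block cannot turn a sign, since they leave each fold change as it was. The replicate numbers do not pair the pools by any label, and same-numbered arrays deviated with a correlation of −0.056. With the replicate block, 0 proteasome genes passed the adjusted p. In this balanced design the block cannot change a fold change, so the class medians stay as reported by construction.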
